A study of Homo sapiens with 5 samples.

Results

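APOE, CLU, AGT, SPARCL1 and CST3 are 5 genes whose protein products are released by astrocytes, and their transcripts were followed in human cells of brain organoids before and after transplantation into the mouse brain. The 5 genes were taken by name, as secreted astrocyte genes that earlier results of these data had put forward, out of 32732 genes listed in every library. Their levels were read in the counts made against the human reference, by library and by cell class, and the classes were set by other marker genes, with none of the 5 genes used in clustering. That these genes are high in astrocyte-like cells is therefore how they were chosen, and differences between classes are given below as a description without a test. The tests of stage and site below used the same libraries, so a call is not independent of how the genes were chosen.

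Single-cell RNA was measured in 5 libraries, 1 for each condition, named D0, HIP_2MPT, HIP_4MPT, PFC_2MPT and PFC_4MPT. All cells descend from H9, a human embryonic stem cell line, labelled WT in the series and described in the methods as a derivative that carries ChR2, a light-gated ion channel, and EYFP, a fluorescent protein. D0 held organoids cultured until day 42, the day of grafting, and the other libraries held grafts taken 2 or 4 months later (2MPT and 4MPT) from the hippocampus (HIP) or the prefrontal cortex (PFC) of SCID-Beige mice, which lack B and T cells and still have microglia and other host cells. Organoids of 1 line were used throughout, and how many animals were pooled in each graft library is not given in the sources used here, so p-values measure the spread between these libraries only.

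Apolipoprotein E carries cholesterol and phospholipid in particles that astrocytes release and neurons take up through lipoprotein receptors. Clusterin, also called apolipoprotein J, is a secreted chaperone. Angiotensinogen is the precursor of the angiotensin peptides, SPARCL1 (hevin) is a matrix protein that promotes the formation of synapses, and cystatin C, the product of CST3, inhibits cysteine proteases such as cathepsins. In the brain, astrocytes are a main source of these proteins, and microglia also make apolipoprotein E and cystatin C.

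The start regions of 4 of these genes are shown because their transcripts rose together between 2MPT and 4MPT, each read 5′ to 3′ on the strand of the gene from 250 bases before to 50 bases after a RefSeq transcription start of GRCh38.p14. Capitals mark matches, on either strand, to the TATA box (TATAAA), the GC box (GGGCGG), a STAT motif (TTCNNNGAA), an AP-1 motif (TGANTCA), an NFI half-site (TTGGC) or an LXR element (AGGTCA, 4 bases of any kind, AGGTCA), and no 2 matches overlapped.
AGT, chr1:230714073-230714372, minus strand: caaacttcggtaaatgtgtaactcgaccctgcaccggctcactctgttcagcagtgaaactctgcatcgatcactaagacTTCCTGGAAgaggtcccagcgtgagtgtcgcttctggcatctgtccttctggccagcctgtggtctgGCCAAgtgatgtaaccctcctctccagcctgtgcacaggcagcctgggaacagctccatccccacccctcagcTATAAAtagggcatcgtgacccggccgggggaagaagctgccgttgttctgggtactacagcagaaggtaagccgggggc
SPARCL1, chr4:87529327-87529626, minus strand: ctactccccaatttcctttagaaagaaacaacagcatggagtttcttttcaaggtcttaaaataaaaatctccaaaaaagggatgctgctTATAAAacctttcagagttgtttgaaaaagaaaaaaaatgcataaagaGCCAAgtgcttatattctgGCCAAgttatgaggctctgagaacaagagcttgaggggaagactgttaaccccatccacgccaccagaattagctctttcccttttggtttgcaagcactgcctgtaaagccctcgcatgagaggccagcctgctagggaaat
APOE, chr19:44905546-44905845, plus strand: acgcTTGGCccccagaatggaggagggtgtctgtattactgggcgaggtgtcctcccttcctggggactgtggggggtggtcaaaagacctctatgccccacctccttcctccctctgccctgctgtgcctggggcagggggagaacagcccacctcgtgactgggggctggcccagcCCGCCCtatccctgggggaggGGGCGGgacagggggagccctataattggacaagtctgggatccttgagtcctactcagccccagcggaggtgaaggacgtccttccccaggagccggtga
CST3, chr20:23637906-23638205, minus strand: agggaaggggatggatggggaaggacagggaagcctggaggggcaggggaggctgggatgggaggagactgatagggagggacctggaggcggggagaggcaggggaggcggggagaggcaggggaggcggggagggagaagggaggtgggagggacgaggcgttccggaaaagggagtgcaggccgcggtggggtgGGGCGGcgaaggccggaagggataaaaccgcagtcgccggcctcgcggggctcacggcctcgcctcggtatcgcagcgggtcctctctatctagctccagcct

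The letters TATAAA were matched once in AGT, near the transcription start, and once in SPARCL1, farther upstream. They were matched in neither APOE nor CST3, and in 11.5% of 35116 promoter entries of the same length. Matches were counted at any distance from the start. GC boxes were matched at 2 places in APOE and 1 in CST3, against 45.0% of all entries. The AGT sequence held 1 STAT motif, which 7.66% of all entries hold, and NFI half-sites, held by 45.6%, were matched in AGT (1), APOE (1) and SPARCL1 (2). No AP-1 motif (7.71% of entries) and no LXR element (0.0199%) was matched in the 4 sequences. APOE has 3 starts among these entries, of which the nearest to the annotated gene start is shown. AGT, SPARCL1 and CST3 have 1 each, which lies inside the gene span given below and not at its annotated start. The distance is largest for AGT.

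On GRCh38 with the GENCODE v44 annotation, APOE (ENSG00000130203) spans bases 44905791 to 44909393 of chromosome 19 (plus strand), and its canonical transcript has 4 exons. CLU (ENSG00000120885) lies on chromosome 8 from 27596917 to 27614700 on the minus strand, with 9 exons. AGT (ENSG00000135744) lies on chromosome 1 from 230690776 to 230745576 on the minus strand, with 5 exons. SPARCL1 (ENSG00000152583) lies on chromosome 4 from 87473335 to 87531061 and CST3 (ENSG00000101439) on chromosome 20 from 23626706 to 23638473, both on the minus strand, with 11 and 3 exons.

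Human cells that passed the filters numbered 4885 in D0 and between 5952 and 8363 in a graft library, and the median cell held 9847 UMIs in D0 against 1253 to 2759 in grafts. A UMI is a tag that marks 1 RNA molecule, and levels are given as CPM, the UMIs of a gene relative to all UMIs of the cells summed, so that 32 of 1048971 UMIs give 30.5 CPM. D0 was counted with another release of Cell Ranger and dissociated with another enzyme than the grafts, and these differences cannot be told apart from transplantation. In PFC_4MPT, 2278 barcodes carried RNA of both species, against 76 to 628 in the other grafts, and were left out, and the median mitochondrial share was 7.31% against 2.35% to 3.77% elsewhere. Between 6 and 20 cell barcodes were shared by any pair of libraries, at most 0.289% of a library's human cells.

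Over all human cells, the level of APOE was 63.0 CPM for D0 (exact 95% Poisson interval 60.9 to 65.1), 8.95 CPM for HIP_2MPT (7.27 to 10.9), 13.6 CPM for PFC_2MPT (11.8 to 15.6), 666 CPM for HIP_4MPT (656 to 678) and 307 CPM for PFC_4MPT (298 to 315). APOE was thus lowest in both 2MPT libraries and highest in both 4MPT libraries, with D0 between them and no overlap of the intervals between stages. The intervals cover counting error only, and over all cells a larger share of a cell type cannot be told apart from more RNA per cell.

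CLU was counted at 163 CPM for D0 (160 to 166), 79.4 CPM for HIP_2MPT (74.3 to 84.9), 196 CPM for PFC_2MPT (189 to 204), 731 CPM for HIP_4MPT (720 to 743) and 361 CPM for PFC_4MPT (352 to 370). The 2MPT libraries lay on both sides of D0, and both 4MPT libraries lay above all others. AGT was nearly absent before 4MPT, with 14 UMIs in D0, 8 in HIP_2MPT and 10 in PFC_2MPT over all human cells. It then had 665 UMIs in HIP_4MPT and 357 in PFC_4MPT, which gave 31.4 CPM (29.1 to 33.9) and 21.4 CPM (19.3 to 23.8) against 0.251 CPM for D0 (0.137 to 0.420).

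SPARCL1 was at 1.45 CPM for D0 (1.15 to 1.80), 8.04 CPM for HIP_2MPT (6.46 to 9.90), 6.42 CPM for PFC_2MPT (5.20 to 7.84), 198 CPM for HIP_4MPT (192 to 204) and 63.5 CPM for PFC_4MPT (59.7 to 67.5). Its level was higher at each stage than at the stage before, and among the 4MPT libraries HIP lay above PFC. CST3 was at 149 CPM for D0 (146 to 152), 321 CPM for HIP_2MPT (310 to 331), 313 CPM for PFC_2MPT (304 to 322), 1782 CPM for HIP_4MPT (1764 to 1800) and 1294 CPM for PFC_4MPT (1277 to 1311). The intervals of the 2MPT libraries overlapped for AGT, SPARCL1 and CST3, and at 4MPT the level of each gene was lower in PFC than in HIP. The intervals cover counting error of 1 library each, so a gap between them does not test the site. In the fit of the sites, given below, edgeR called none of the 5 genes over all human cells.

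**Figure D1:**
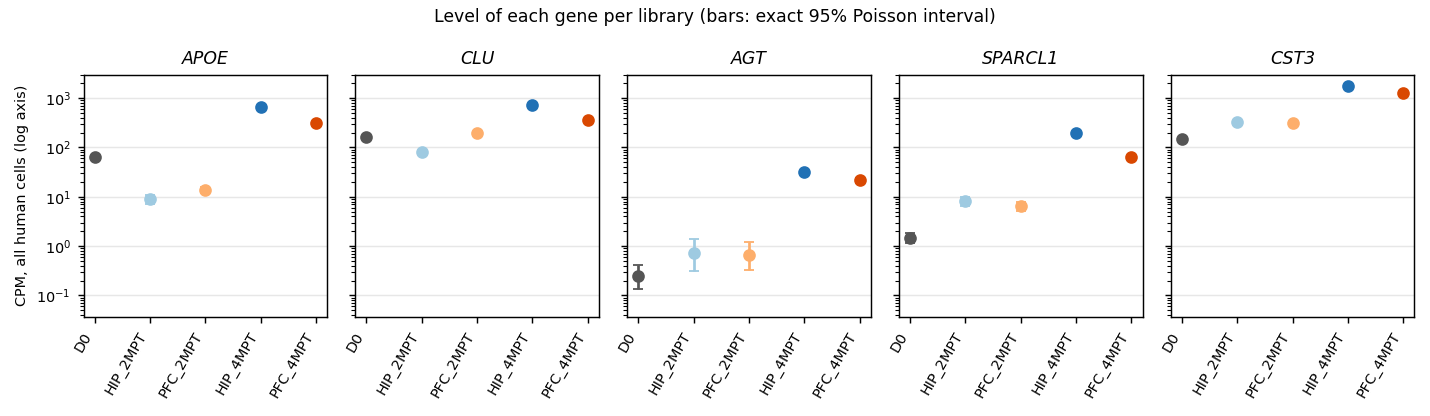
Level of each gene over all human cells (vertical axis, CPM, logarithmic) in the 5 libraries (horizontal axis), with exact 95% Poisson intervals that cover counting error only. For all 5 genes both 4MPT libraries lie above both 2MPT libraries and D0, and APOE in D0, at 63.0 CPM, lies above both 2MPT libraries. The genes were picked with earlier results of these data known, and the share of all genes in this order was not computed.

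To compare the stages, UMIs were summed per library and fitted with edgeR's quasi-likelihood test over all genes, with the HIP and PFC libraries as the 2 replicates of a stage and Benjamini-Hochberg adjustment. From 2MPT to 4MPT all 5 genes rose, where 2.4% of 19074 genes tested were called, 1.85% higher and 0.55% lower. APOE rose by 5.46 ± 0.41 on the log2 scale (SE, edgeR adjusted p = 0.000249), 44.1-fold. AGT rose by 5.29 ± 0.39 (adjusted p = 0.000249) and SPARCL1 by 4.22 ± 0.46 (adjusted p = 0.00153). The smaller changes were those of CST3, which rose by 2.33 ± 0.25 (adjusted p = 0.00153), and CLU, which rose by 2.02 ± 0.43 (adjusted p = 0.0356). The median log2 fold change of the 5 genes was 4.22, against -0.00887 for all genes tested. The genes were picked with earlier results of these data known, so their calls and median are no independent support. The call of CLU was lost without HIP_4MPT (adjusted p = 0.202) or without PFC_4MPT (adjusted p = 0.188).

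From D0 to 2MPT the 5 genes went different ways. In this comparison 48.3% of 19074 genes were called, 27.2% higher and 21.1% lower, so a call says little about a single gene, and D0 had no replicate and was assumed to vary like the grafts. APOE fell by 2.85 on the log2 scale (SE 0.41, edgeR adjusted p = 0.000295) and SPARCL1 rose by 1.94 ± 0.58 (adjusted p = 0.0183). CST3 (log2 fold change 0.72 ± 0.31, adjusted p = 0.0753), AGT (1.08 ± 0.54, adjusted p = 0.119) and CLU (-0.60 ± 0.49, adjusted p = 0.335) did not pass the test. Without PFC_2MPT the fall of CLU became 1.43 on the log2 scale and passed the test (adjusted p = 0.00200).

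Where the transcripts came from changed with the stage. In D0, 70.6% (exact Clopper-Pearson interval 69.0 to 72.1) of APOE UMIs were held by choroid-plexus-like cells, which were 7.98% of the cells, and 0.910% by astrocyte-like cells. The choroid plexus is the epithelium that makes cerebrospinal fluid, and in this class of D0 APOE was at 375 CPM, CLU at 558 CPM and CST3 at 389 CPM. These cells were led by TTR, the transthyretin gene, and the summed level of 8 choroid plexus markers over all human cells was 6211 CPM in D0 and at most 11.2 CPM in a graft library. That the class was nearly missing from grafts (0 to 9 cells) moved with the fall of APOE, and its part in that fall was not tested. In progenitor-like cells alone APOE also fell, with 18.7 CPM before grafting and 2.68 (HIP) and 3.31 (PFC) CPM at 2MPT. These levels rested on 452 UMIs in D0 and on 2 (HIP) and 7 (PFC) UMIs at 2MPT.

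In grafts, astrocyte-like cells held most of the APOE UMIs, at 62.6% for HIP_2MPT (52.3 to 72.1), 89.2% for PFC_2MPT (84.1 to 93.1), 81.5% for HIP_4MPT (80.9 to 82.2) and 87.5% for PFC_4MPT (86.5 to 88.4). They made up 3.97%, 6.08%, 8.26% and 5.54% of the cells of these libraries. At 4MPT the same class held 89.6% and 76.8% of AGT UMIs and 78.4% and 73.6% of CLU UMIs in HIP and PFC. Of CST3 it held 57.5% and 47.4%, and of SPARCL1 49.6% and 50.3%. For these 2 genes, glial-progenitor-like cells, marked by OLIG1 and EGFR, were the next source at 4MPT, with 24.6% and 26.0% of CST3 UMIs and 30.6% and 26.6% of SPARCL1 UMIs. At 2MPT neuron-like cells, by far the most numerous class, held 54.9% of CST3 UMIs in HIP and 31.3% in PFC.

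The astrocyte-like class held 92 cells in D0, 329 (HIP) and 362 (PFC) at 2MPT, and 571 (HIP) and 463 (PFC) at 4MPT. It was made of a cluster led by MT1E, MT2A and TNC, present in all libraries, and a smaller cluster led by MT3, HOPX and AQP4, with 166 cells from HIP and 133 from PFC at 4MPT, 11 and 1 at 2MPT and none from D0. Of 14 astrocyte markers, 12 had at least 1 UMI in this class in HIP_2MPT and 14 in each other graft library, while 10 had one in D0. In the cluster led by MT1E at 2MPT, GJB6 had 0 and 2 UMIs and ALDH1L1 had 0 and 3, in HIP and PFC. The summed level of the 14 markers was 548 CPM in D0, 1745 and 1964 CPM at 2MPT and 3556 and 3799 CPM at 4MPT. That of 10 radial glia markers was 10100 CPM in D0, 5388 and 9930 CPM at 2MPT and 7451 and 6928 CPM at 4MPT. In the 92 cells of D0 the defining markers GFAP and AQP4 and also GJB6 and HEPACAM had no UMI, so the data went against the name of the class there and D0 was left out of its tests. The leading genes were low in these D0 cells too, with 1 UMI of MT1E and 60.1 CPM of MT2A and 39.1 CPM of TNC. Without integration the astrocyte-like class held 5 cells of D0. The summed level of 8 microglia markers was at most 2.29 CPM in astrocyte-like cells of a graft library and 0 CPM in those of PFC_2MPT.

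In astrocyte-like cells, APOE was counted at 30.5 CPM for D0 (20.9 to 43.1), 142 CPM for HIP_2MPT (109 to 182), 177 CPM for PFC_2MPT (152 to 205), 4602 CPM for HIP_4MPT (4518 to 4687) and 3190 CPM for PFC_4MPT (3097 to 3285). Both 4MPT libraries lay far above both 2MPT libraries, whose intervals overlapped. In the cluster led by MT1E alone, which held 318 of the 329 cells of HIP_2MPT, APOE was at 83.9 CPM (58.4 to 117) there, below the interval of PFC_2MPT. AGT rested on 6 and 8 UMIs at 2MPT, or 13.7 CPM (5.04 to 29.9) in HIP and 7.84 CPM (3.38 to 15.4) in PFC, and reached 238 CPM for HIP_4MPT (220 to 258) and 196 CPM for PFC_4MPT (173 to 220). SPARCL1 went from 54.9 CPM for HIP_2MPT (35.2 to 81.7) and 13.7 CPM for PFC_2MPT (7.50 to 23.0) to 833 CPM for HIP_4MPT (798 to 870) and 380 CPM for PFC_4MPT (348 to 413). At 2MPT a few cells carried much of it, since the cluster led by MT1E held 7 of the 24 UMIs in HIP and 6 of the 14 in PFC, or 16.8 CPM (6.75 to 34.6) and 5.89 CPM (2.16 to 12.8), and the remaining UMIs came from the 11 cells and 1 cell of the cluster led by MT3.

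CLU and CST3 were already abundant in this class at 2MPT. CLU was at 345 CPM for D0 (310 to 383), 963 CPM for HIP_2MPT (873 to 1059), 1820 CPM for PFC_2MPT (1738 to 1905), 4855 CPM for HIP_4MPT (4769 to 4942) and 3161 CPM for PFC_4MPT (3069 to 3256). CST3 was at 177 CPM for D0 (153 to 205), 1599 CPM for HIP_2MPT (1482 to 1722), 1099 CPM for PFC_2MPT (1036 to 1165), 8682 CPM for HIP_4MPT (8567 to 8798) and 7294 CPM for PFC_4MPT (7153 to 7437). For both genes the intervals of the 4MPT libraries lay above those of the 2MPT libraries.

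Within the class, all 5 genes rose from 2MPT to 4MPT in the 4 graft libraries, where 2.45% of 11389 genes tested were called, 1.84% higher and 0.606% lower. APOE rose by 4.64 ± 0.30 on the log2 scale (SE, edgeR adjusted p = 9.30e-06), the smallest adjusted p of the 5, and AGT by 4.50 ± 0.37 (adjusted p = 7.76e-05). SPARCL1 rose by 4.40 ± 0.53 (adjusted p = 0.00105) and CST3 by 2.62 ± 0.25 (adjusted p = 0.000184). CLU rose least, by 1.56 ± 0.31 (adjusted p = 0.0184), and lost its call without HIP_2MPT (adjusted p = 0.0710) or with the graft site as a block (adjusted p = 0.0860). The median log2 fold change of the 5 genes was 4.40, against -0.0102 for all genes tested. Here too the genes had been picked with earlier results of these data known.

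The class itself changed as well. Of the 14 astrocyte markers, 11 rose between the stages, among them AQP4, a water channel of astrocyte endfeet (3.79 ± 0.32, adjusted p = 8.26e-05), and GJA1, a gap junction protein (4.87 ± 0.51, adjusted p = 0.000387). The change of GJA1 started from few counts, with 1 UMI in HIP_2MPT and 2 in PFC_2MPT in the cluster led by MT1E. GFAP, an intermediate filament of astrocytes (-0.15 ± 0.27, adjusted p = 0.884), SLC1A3, a glutamate transporter (-0.09 ± 0.23, adjusted p = 0.926), and FGFR3 (-0.60 ± 0.32, adjusted p = 0.456) did not pass the test. These markers set the class, and the cluster led by MT3 was nearly missing at 2MPT. In the cluster led by MT1E alone, taken as an alternative after the data had been seen, all 5 genes were again called. CST3 rose less there, by 1.85 ± 0.23 (adjusted p = 0.00534), with 1117 CPM and 1071 CPM at 2MPT and 4337 CPM and 3404 CPM at 4MPT, while SPARCL1 rose by 4.87 ± 0.44 (adjusted p = 0.000431). Markers of other cell types moved in the class too, and their part in the result was not tested. Of the 6 glial progenitor markers 3 rose (median of the 6 log2 fold changes 1.70), with a summed level of 121 and 146 CPM at 2MPT and 451 and 449.6 CPM at 4MPT, and of 7 cycling progenitor markers tested 4 fell (median -2.13).

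**Figure D2:**
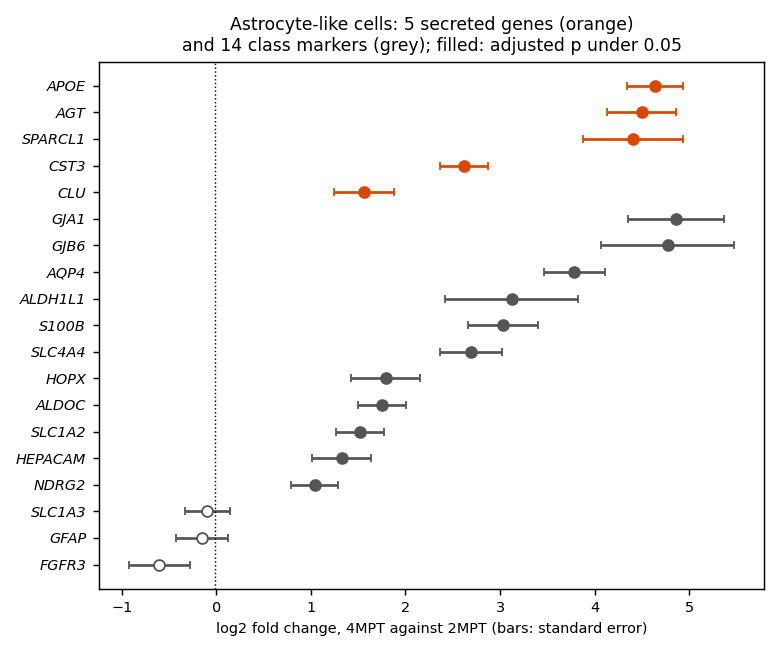
Log2 fold change from 2MPT to 4MPT in astrocyte-like cells (horizontal axis, bars are standard errors) for the 5 secreted genes (orange) and the 14 astrocyte markers (grey). The dotted line is the median over all 11389 genes, and filled points passed the test. All 5 secreted genes are filled, and GFAP, SLC1A3 and FGFR3 are open.

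At 4MPT the clusters of astrocyte-like cells lay far apart in CST3 and SPARCL1 and close together in APOE and AGT. APOE was at 4687 CPM in the cluster led by MT1E and 4330 CPM in that led by MT3 in HIP_4MPT, and at 3238 and 3062 CPM in PFC_4MPT, a ratio of 0.924 (0.884 to 0.965) and 0.946 (0.884 to 1.01). AGT was likewise at a ratio of 1.12 (0.926 to 1.35) and 1.04 (0.792 to 1.36). CST3 was 5.22 (5.08 to 5.36) times as high in the cluster led by MT3 in HIP_4MPT and 5.14 (4.93 to 5.35) times in PFC_4MPT, where it reached 22637 CPM and 17490 CPM. SPARCL1 was 7.28 (6.62 to 7.999) and 3.72 (3.12 to 4.44) times as high there. CLU was lower in that cluster, at a ratio of 0.719 (0.686 to 0.753) in HIP_4MPT and 0.592 (0.548 to 0.639) in PFC_4MPT. These cells were clustered on other genes of the same libraries, so the ratios are a description, with no test.

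**Figure D3:**
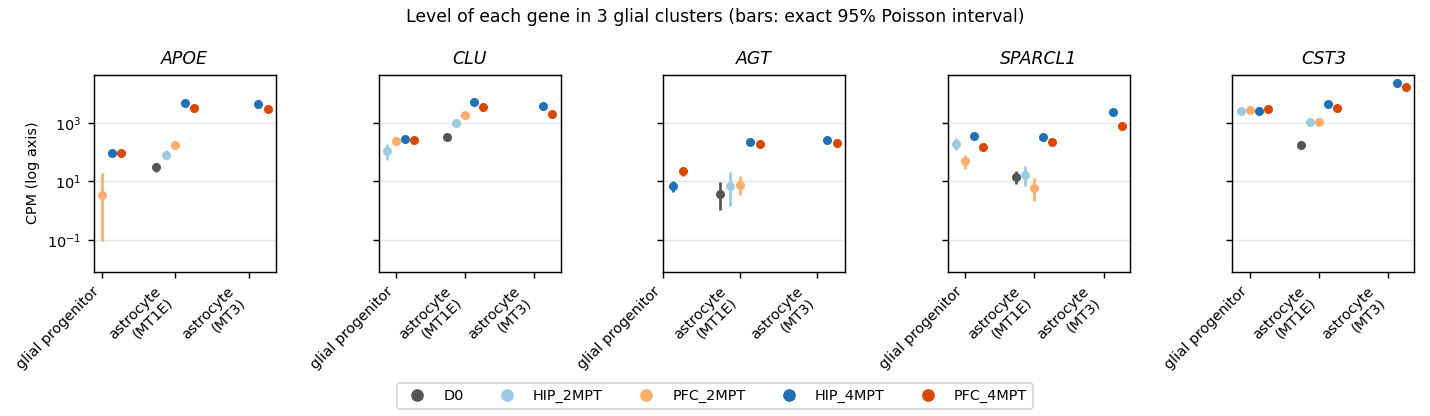
Level of each gene (vertical axis, CPM, logarithmic) in the glial-progenitor-like cluster and the clusters of astrocyte-like cells led by MT1E and by MT3, by library (colours), with exact 95% Poisson intervals. Libraries with under 20 cells in a cluster and counts of 0 are not drawn. CST3 is highest in the cluster led by MT3, at 22637 CPM in HIP_4MPT, while the ratio of the cluster led by MT3 to that led by MT1E at 4MPT is 0.924 and 0.946 for APOE and 1.12 and 1.04 for AGT.

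Glial-progenitor-like cells carried SPARCL1 and CST3 without much APOE or AGT. CST3 in this class was at 2638 CPM for HIP_2MPT (2329 to 2978), 2733 CPM for PFC_2MPT (2544 to 2933), 2640 CPM for HIP_4MPT (2587 to 2694) and 3048 CPM for PFC_4MPT (2968 to 3129), so that its level at 2MPT was above that in astrocyte-like cells of the same libraries. SPARCL1 was at 191 CPM (115 to 299), 49.4 CPM (27.0 to 82.8), 365 CPM (346 to 386) and 153 CPM (136 to 172) in the same order. APOE had 0 UMIs in HIP_2MPT, which allows up to 30.2 CPM (3 counts), and 1 UMI in PFC_2MPT, and reached 91.1 CPM in HIP_4MPT and 91.5 CPM in PFC_4MPT. The class itself grew from 64 and 109 cells at 2MPT to 1004 and 701 cells at 4MPT.

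**Figure D4:**
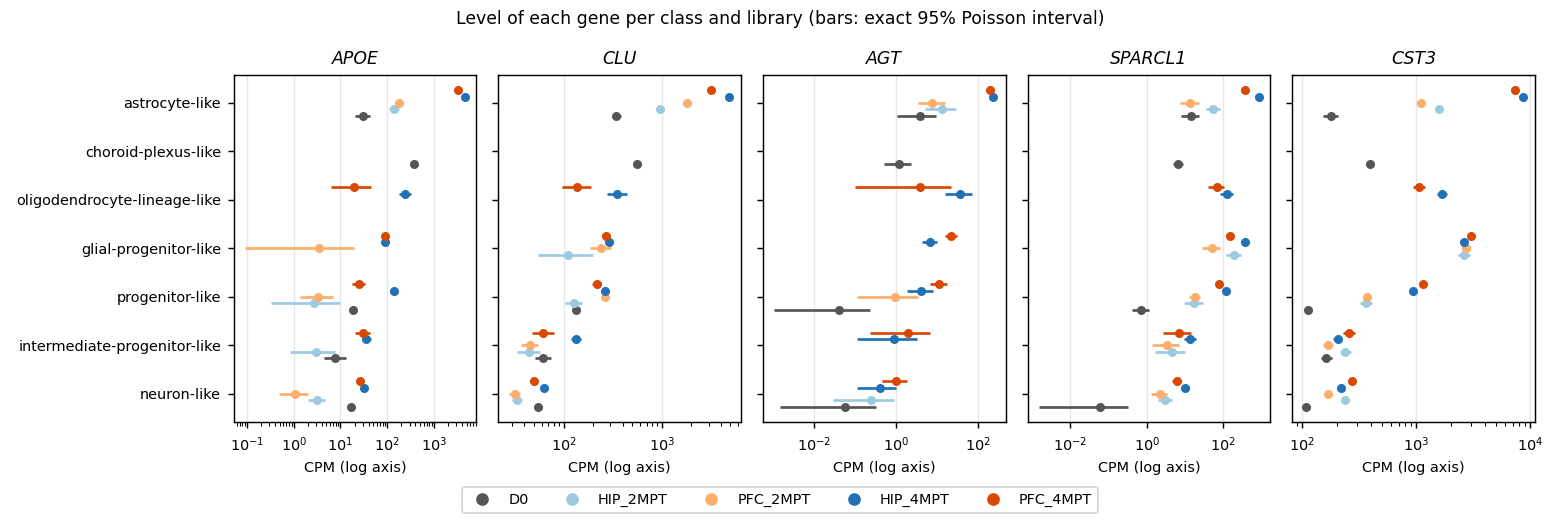
Level of each gene (horizontal axis, CPM, logarithmic) in the named cell classes (vertical axis) and libraries (colours), with exact 95% Poisson intervals. Classes with under 20 cells in a library and counts of 0 are not drawn. Among the classes drawn at 4MPT the astrocyte-like class is highest for all 5 genes, up to 8682 CPM for CST3. Choroid-plexus-like cells are drawn for D0 only.

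Shares of cells with a transcript were compared after each cell had been thinned to 1000 UMIs, which left out 7 to 91 astrocyte-like cells of a library. An APOE transcript was then found in 7.56% (4.54 to 11.7) of astrocyte-like cells of HIP_2MPT, 13.4% for PFC_2MPT (10.0 to 17.4), 76.5% for HIP_4MPT (72.8 to 80.0) and 64.9% for PFC_4MPT (60.3 to 69.3). In neuron-like cells, taken for comparison because neurons have little APOE in the resting brain, the shares were 0.282%, 0.0831%, 3.45% and 2.50%. Before thinning the shares in astrocyte-like cells were 7.29%, 18.2%, 88.1% and 74.9%, and the median UMIs of these cells were 1186, 2599.5, 4179 and 2846, against 1242, 2207.5, 2426 and 1734 in neuron-like cells.

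CLU was found in 54.6% and 77.5% of thinned astrocyte-like cells at 2MPT and in 92.9% and 86.8% at 4MPT, in HIP and PFC. In neuron-like cells the shares of CLU lay between 3.21% and 6.65% in grafts. For CST3 the shares were 61.8%, 56.4%, 85.6% and 84.6% in astrocyte-like cells against 16.4% to 22.7% in neuron-like cells. AGT was found in 20.6% and 14.9% of astrocyte-like cells at 4MPT and SPARCL1 in 33.6% and 16.7%, and in under 1% of neuron-like cells. The interval in astrocyte-like cells did not lie above that in neuron-like cells for AGT in both 2MPT libraries and SPARCL1 in PFC_2MPT. Elsewhere in grafts it did, which is a description, since the genes were chosen as astrocyte genes. The intervals cover the cells of 1 library each, and the share of all genes with such a gap was not computed.

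**Figure D5:**
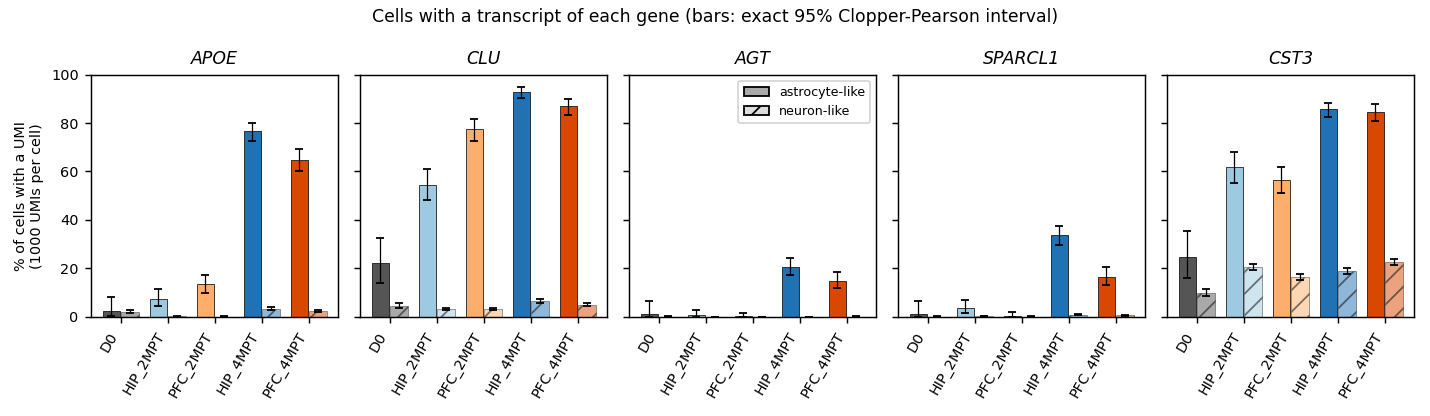
Share of cells with at least 1 UMI of each gene (vertical axis, %) after thinning to 1000 UMIs per cell, in astrocyte-like (plain) and neuron-like (hatched) cells of each library, with exact 95% Clopper-Pearson intervals. APOE goes from at most 13.4% of astrocyte-like cells at 2MPT to 76.5% and 64.9% at 4MPT, and CLU is at 54.6% and 77.5% already at 2MPT.

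The 5 genes were found together in single cells more often at 4MPT. None of them was found in 17.2% and 12.5% of thinned astrocyte-like cells at 2MPT, and in 0.356% and 1.10% at 4MPT. All 5 were found in 40 of 562 cells from HIP and 10 of 456 from PFC at 4MPT, and in 0 of 238 and 0 of 351 cells of the 2MPT libraries. Each gene was found in more of these cells at 4MPT, which by itself raises such counts, and no expected count for all 5 was computed. In HIP_4MPT, APOE and CLU were found in the same cell in 73.3% of cells, against 71.1% if they were found independently. For SPARCL1 and CST3 the values were 33.3% and 28.8%. Below independence in HIP_4MPT lay SPARCL1 with APOE (24.2% against 25.7%) and SPARCL1 with CLU (30.1% against 31.2%). In PFC_4MPT neither pair lay below it, with 11.2% against 10.8% and 14.5% against 14.5%. There APOE with CLU was at 59.2% against 56.4%, and SPARCL1 with CST3 at 16.4% against 14.1%. The D0 cells of the class held none of the 5 genes in 61.2% of cases.

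In neuron-like cells of grafts, APOE was the only one of 4 genes tested that was called between the stages, where 1.38% of 15969 genes were called, 0.958% higher and 0.42% lower. Its level was 3.16 (HIP) and 1.04 (PFC) CPM at 2MPT and 32.1 (HIP) and 26.8 (PFC) CPM at 4MPT, and it rose by 3.87 ± 0.42 on the log2 scale (edgeR adjusted p = 0.00203). At 4MPT the level in astrocyte-like cells was 143 and 119 times as high. CLU (0.85 ± 0.25, adjusted p = 0.144), SPARCL1 (1.70 ± 0.43, adjusted p = 0.0843) and CST3 (0.34 ± 0.30, adjusted p = 0.731) did not pass the test, and AGT, with 0 to 9 UMIs per library, was too low to test. APOE in neuron-like cells moved with its level over all cells, and the part of free RNA was not tested. The class was also made of different clusters at the stages, since an inhibitory neuron cluster led by NRXN3 and DLX6-AS1 gave 12 and 19 cells at 2MPT against 247 (HIP) and 1085 (PFC) at 4MPT. All 8 inhibitory neuron markers rose in the class (median log2 fold change 5.67), and 3 of 11 astrocyte markers tested rose and none fell (median 1.36), with a summed level of 14 astrocyte markers of 231 and 199 CPM at 2MPT and 321 and 300.3 CPM at 4MPT.

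In progenitor-like cells, made of cycling and radial glia clusters, 3 of the 5 genes were called between D0 and 2MPT, where 35.8% of 13244 genes were called, 21% higher and 14.8% lower, and where D0 again had no replicate and was assumed to vary like the grafts. SPARCL1 was at 0.704 CPM before grafting and at 17.4 (HIP) and 18.0 (PFC) CPM at 2MPT, and rose by 4.23 ± 0.49 on the log2 scale (edgeR adjusted p = 1.23e-05). CST3 went from 113 CPM to 360 CPM and 371 CPM and rose by 1.30 ± 0.32 (adjusted p = 0.00556). APOE fell by 2.96 on the log2 scale (SE 0.82, adjusted p = 0.0108), a call that was lost without PFC_2MPT (adjusted p = 0.0598) and with DESeq2 (adjusted p = 0.127). CLU (0.17 ± 0.38, adjusted p = 0.752) did not pass, and neither did AGT, with 1 UMI in D0 and 2 in both 2MPT libraries together. The call of CST3 was lost in clusters made without integration (adjusted p = 0.0650). The makeup of the class differed, as the radial glia cluster gave 1224 of 1812 cells in D0 against 137 of 429 (HIP) and 202 of 534 (PFC) at 2MPT, and without integration it held 1210 cells of D0 and 0 of either 2MPT library. In the class 6 of 10 radial glia markers fell and none rose, 6 of 8 intermediate progenitor markers rose and 1 fell, and 8 of 12 astrocyte markers tested rose and 3 fell. Their part in the changes of the 5 genes was not tested. The level of APOE in the class at 2MPT rested on 2 UMIs in HIP and 7 in PFC.

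The graft sites were compared in a fit that also held the stage. None of the 5 genes was called by edgeR in all human cells, where 0.0827% of 18127 genes were called (0.0662% higher and 0.0165% lower in PFC), or in astrocyte-like cells, where 0.00878% of 11389 were, all of them higher in PFC. In each fit 1 of the 5 genes had an unadjusted p under 0.05, as did 443 of the 18127 genes in all human cells and 229 of the 11389 in astrocyte-like cells, and DESeq2 called 0 of the 5 in both. That gene was SPARCL1, with a log2 fold change of -1.39 ± 0.33 for PFC against HIP in astrocyte-like cells (adjusted p = 1.00, lower in PFC at both stages) and -0.99 ± 0.33 in all human cells (adjusted p = 0.933). In clusters made without integration SPARCL1 was called in astrocyte-like cells (adjusted p = 0.0275). For the other genes the log2 fold change in astrocyte-like cells was -0.37 ± 0.23 for CST3, -0.37 ± 0.35 for AGT, -0.12 ± 0.29 for APOE and 0.16 ± 0.36 for CLU.

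Some other genes of the pathways of these proteins were called between the stages. In astrocyte-like cells 2.45% of all 11389 genes tested were called, 1.84% higher and 0.606% lower. Of 12 lipoprotein transport genes tested in astrocyte-like cells (of 18 listed), 1 rose between the stages, PLTP, a phospholipid transfer protein, by 1.21 ± 0.27 on the log2 scale (edgeR adjusted p = 0.0356), and none fell. It was at 64.0 CPM in HIP_2MPT, 63.7 CPM in PFC_2MPT, 128 CPM in HIP_4MPT and 159.8 CPM in PFC_4MPT. Of the 12 secreted synapse and matrix modulators, BCAN, the proteoglycan brevican, rose by 1.56 ± 0.27 (adjusted p = 0.00888), and THBS1, a thrombospondin that promotes synapse formation, fell by 3.85 (SE 0.74, adjusted p = 0.0152). Of 7 cystatin and cysteine protease genes tested, 1 rose, CTSH (cathepsin H), by 1.42 ± 0.34 (adjusted p = 0.0442). Of the angiotensin system only 2 of 12 genes were high enough to test, and neither was called. The median log2 fold change was 0.06 for the lipoprotein transport genes, 0.17 for the synapse and matrix modulators, 1.13 for the cystatin and protease genes and 0.80 for the angiotensin genes, against -0.0102 for all genes tested.

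Over all human cells between 2MPT and 4MPT, APOD, a lipocalin of oligodendrocyte precursors and glia, was the single lipoprotein transport gene of 18 tested to rise, from 3 UMIs in HIP_2MPT and 0 in PFC_2MPT to 17.7 and 22.5 CPM. Between these stages 2.4% of 19074 genes tested were called, 1.85% higher and 0.55% lower. BCAN rose by 3.15 ± 0.35 on the log2 scale (edgeR adjusted p = 0.00165), as did CTSH by 1.48 ± 0.32 (adjusted p = 0.0393) and CTSL (cathepsin L) by 1.29 ± 0.24 (adjusted p = 0.0191). From D0 to 2MPT, LRP8, a receptor for apolipoprotein E and reelin that neurons carry, rose by 2.57 ± 0.44 (adjusted p = 0.000872). In that comparison, where 27.2% of all genes were called higher and 21.1% lower, 3 of 18 lipoprotein transport genes rose and 7 fell, 8 of 12 synapse and matrix modulators rose and 3 fell, and 5 of 9 cystatin and cysteine protease genes fell and none rose, while 1 of 5 genes of the angiotensin system rose and 1 fell. ACE, the enzyme that converts angiotensin I, was tested in all human cells between the stages only and did not pass (log2 fold change -0.27 ± 0.89 from D0 to 2MPT and -0.29 ± 0.84 from 2MPT to 4MPT). In neuron-like cells BCAN alone of these lists was called between 2MPT and 4MPT (2.29 ± 0.47, edgeR adjusted p = 0.0423), where 1.38% of 15969 genes were called. In progenitor-like cells between D0 and 2MPT, where 21% of all genes were called higher and 14.8% lower, 7 of 11 synapse and matrix modulators rose and 2 fell, 1 of 13 lipoprotein transport genes rose and 4 fell, and 3 of 6 cystatin and cysteine protease genes and 1 of 3 genes of the angiotensin system fell.

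Across 31 sums of a library and class, the genes whose log2(CPM + 1) was most like that of a member among 10220 genes were SOD1 (Pearson r = 0.867), OAT (0.847) and REEP5 (0.843) for APOE and ATP1B2 (0.918), GLIS3 (0.914) and CNN3 (0.913) for CLU. For AGT they were C1QL2 (0.892), OAT (0.879) and GATM (0.867), for SPARCL1 BCAN (0.922), LYPLAL1 (0.915) and CST3 (0.913), and for CST3 SLC4A4 (0.935), AL591686.2 (0.925) and OBI1-AS1 (0.920). Among the 5 genes r ranged from 0.634 for APOE and SPARCL1 to 0.913 for SPARCL1 and CST3. Sums of 1 library share its depth and free RNA, so these values are a description.

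RNA of the mouse host was checked as a source of these counts, since host astrocytes and microglia carry Apoe and Cst3 in large amounts. In the dual reference, barcodes kept as human cells held 7880 (HIP) and 779 (PFC) UMIs of mouse Apoe at 2MPT and 3398 (HIP) and 4144 (PFC) at 4MPT. At 2MPT this was more than the human APOE count of the same cells, 99 and 203 UMIs. Mouse Apoe was found in 51.4% of astrocyte-like and 55.9% of neuron-like cells of HIP_2MPT, and the intervals of the classes overlapped in all 4 grafts. For mouse Cst3 they overlapped in 3 grafts, and in HIP_4MPT the share was 83.7% (80.4 to 86.6) of astrocyte-like and 75.9% (74.6 to 77.3) of neuron-like cells, with a median of 4179 and 2426 human UMIs per cell.

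The human counts barely depended on the reference. Human APOE in human cells numbered 99, 203, 14108 and 5107 UMIs in the dual reference and 99, 203, 14114 and 5111 in the human reference, and over the 5 genes and 4 grafts the dual count differed by at most 1.04%. In 2071 host barcodes of HIP_4MPT, 61421 UMIs of mouse Apoe went with 217 UMIs of human APOE in the dual reference. In 772 host barcodes of PFC_2MPT, 15455 UMIs of mouse Apoe went with 0. The human-reference counts, 197 and 1 UMIs of APOE, cover only the host barcodes that were also listed in that reference, so they are lower limits. Likewise 136829 UMIs of mouse Cst3 in host barcodes of PFC_2MPT went with 10 of CST3 in the dual reference. In the dual reference the human count in host barcodes was largest relative to the mouse count for AGT and CLU. It was 14 UMIs of AGT against 51 of mouse Agt in HIP_4MPT, and 17 of CLU against 83 of mouse Clu in HIP_2MPT.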

How the data were processed

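Single-cell RNA was measured in 5 libraries, with 1 library per condition. The authors counted reads with Cell Ranger (3.1 in the submitters' processing notes and the methods, while the file headers give a later release for grafts than for D0) against a human reference and, for grafts, a human-mouse reference, and deposited UMI counts per gene and barcode. Barcodes with over 500 UMIs and over 500 genes, log10 genes over log10 UMIs above 0.8, a mitochondrial share under 0.15 and, in grafts, a human share over 0.8 were kept, giving between 11192237 and 55892222 UMIs per library. No doublet caller was run. Cells were integrated and clustered in R 4.3.3 with Seurat 5.3.0 and sctransform 0.4.2 (2500 variable genes without the 5 genes, 40 components, resolution 0.8, 21 clusters), and clusters were named from marker lists. Counts were summed per library and class. Levels used the 32732 shared genes (806 genes listed in D0 only and 3869 in grafts only were left out). The site fits and the stage fits in astrocyte-like and neuron-like cells used all genes listed in the graft files, and the other fits the shared genes. Sums were tested with edgeR 4.0.16 (TMM, filterByExpr, quasi-likelihood test), with Benjamini-Hochberg adjustment over all genes tested at 0.05. Shares of cells were compared at 1000 UMIs per cell with exact Clopper-Pearson intervals, and CPM with exact Poisson intervals, both at 95% and for counting error only. A count of 0 was read as up to 3 counts. Each SE of an edgeR fit was the absolute log2 fold change divided by the square root of the F statistic.

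The members, marker lists and tests were chosen with earlier results of these data known. The genes named are the 5 members, of each pathway list at most the 5 called genes with the largest absolute log2 fold change per comparison, the 3 genes most like each member, and markers. A few pathway genes that did not pass are named with their values, chosen after their values were seen. Alternatives were DESeq2 1.42.0, RLE size factors, no filter on low counts, each graft library left out, stricter cell filters (human share over 0.9, mitochondrial share under 0.1, over 1000 UMIs), leaving out the 5% of cells with the most UMIs, the dual reference, resolution 1.6, no integration, the site as a block and no thinning. Some genes of the pathway lists are not reported here by name.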

Additional observations from a re-analysis of the deposited data

Results flagged for a closer look

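Some ratios of PFC to HIP lay on opposite sides of 1 at 2MPT and 4MPT, with the counting intervals of the libraries apart at both stages. The difference between the stages was not tested, since each site and stage had 1 library. Over all human cells the ratio of APOE was 1.52 at 2MPT and 0.460 at 4MPT. For CLU it was 2.47 and 0.494 over all human cells, 1.89 and 0.651 in astrocyte-like cells, and 2.06 and 0.825 in progenitor-like cells, so that CLU was higher in PFC at 2MPT and lower in PFC at 4MPT in each of these sets. All human cells include the cells of the smaller sets and come from the same libraries, so these ratios are not separate observations. CST3 went the other way, with ratios of 0.707 and 1.26 in intermediate-progenitor-like cells and 0.715 and 1.26 in neuron-like cells.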

How the results depend on the processing

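Of 437 log2 fold changes of members recomputed under the alternatives, 415 kept their direction and side of the threshold, 7 were no longer called, 8 became called and 7 reversed. Between 2MPT and 4MPT, APOE, AGT, SPARCL1 and CST3 were called under every alternative run, in all human cells and in astrocyte-like cells. For PFC against HIP, none of the reversals was of a called value. CLU became -0.48 in all human cells and -0.22 in astrocyte-like cells without the stage in the fit, and APOE in astrocyte-like cells became 0.0086 with over 1000 UMIs per cell and 0.19 in the cluster led by metallothionein genes alone. From D0 to 2MPT in progenitor-like cells, CLU became -0.55 and AGT -1.80 without PFC_2MPT (highest values with a graft library left out 0.57 and 3.68), and CLU -0.38 without integration. Without integration 1 of the 5 genes was called between sites in astrocyte-like cells, SPARCL1 (-1.45, adjusted p = 0.0275).

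With each graft library left out in turn, 4 to 5 of the 5 genes were called between 2MPT and 4MPT in all human cells and in astrocyte-like cells, 1 to 2 in neuron-like cells, and 2 to 3 from D0 to 2MPT in all human cells and in progenitor-like cells. The site comparisons could not be fitted without a graft library, since no residual degrees of freedom were left. The labels carry no replicate numbers, so the 2 libraries of a site could be tied only by the site. With the graft site as a block, 2 genes were called in neuron-like cells, where SPARCL1 joined APOE (1.68, adjusted p = 0.0396). The number of all genes called moved more, from 457 in all human cells between 2MPT and 4MPT to 1347 without the filter, 738 with the site as a block, 1508 without PFC_2MPT and 32 without PFC_4MPT. In astrocyte-like cells it moved from 279 to 652 without the filter, 103 with the block and 689 without PFC_2MPT.

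From D0 to 2MPT in all human cells, CST3 was called under 3 of 12 alternatives, with DESeq2 (adjusted p = 0.0486) and without HIP_4MPT (0.0443) or PFC_4MPT (0.0499), and AGT without the cells with the most UMIs (adjusted p = 0.0461). Of 120 shares of astrocyte-like cells with a transcript, 100 moved by less than their interval, 15 moved without thinning and 5 without integration. Depth limits AGT and SPARCL1 most, which had 6 to 24 UMIs in astrocyte-like cells of a 2MPT library.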

Other observations

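In HIP_4MPT, 9 cells, 0.130% of the library, fell in the cluster named for choroid plexus markers and held 10.7% of all APOE UMIs of that library. They were singled out after their values had been seen. Each held 87 to 326 UMIs of APOE, and their summed level was 28222 CPM, against 4602 CPM in astrocyte-like cells of the library. The choroid plexus marker TTR had 0 UMIs in them, while the astrocyte markers HOPX, S100B and AQP4 had 69, 44 and 33 UMIs and MT3 had 168. All 9 cells were in the astrocyte-like class when clusters were made without integration, and 0 at resolution 1.6. These cells also held 22 UMIs of AGT, 378 of SPARCL1, 675 of CLU and 1463 of CST3. They enter the values over all human cells and not those of astrocyte-like cells. In PFC_4MPT, 3 cells fell in the same cluster, with 0 UMIs of TTR, and held 1.78% of the APOE UMIs of that library. Their summed level was 8611 CPM, against 3190 CPM in astrocyte-like cells, and 2 of the 3 had an APOE UMI. All 3 were in the astrocyte-like class without integration. The 2 cells of PFC_2MPT in this cluster held 4 UMIs of APOE.

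In progenitor-like cells of HIP_4MPT, APOE was at 137 CPM, while a transcript was found in 2.09% of cells thinned to 1000 UMIs. In PFC_4MPT the level was 24.5 CPM and the share 2.63%, so the higher level in HIP went without a higher share of cells. The levels rested on 299 UMIs in 436 cells of HIP_4MPT and 42 UMIs in 506 cells of PFC_4MPT. How these UMIs were spread over single cells was not examined.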
